A study of Mus musculus with 12 samples.

Results

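The 10 genes Egr1, Egr2, Egr3, Egr4, Npas4, Arc, Homer1, Ier2, Ier5 and Btg2 were taken by symbol from the 43280 gene rows of the count table, as immediate early genes, the first to be transcribed after a stimulus, outside the Fos, Jun and Nr4a families. They were measured in the hypothalamus of male C57/Bl6 pups at postnatal day 6, in 6 control pups and 6 pups exposed to modified maternal separation (MMS). For MMS, pups were taken from the dam daily over the last days before collection, kept on a heating pad and turned onto their backs whenever they righted themselves, and those collected were killed directly after the last session. In the study, the males of each litter were divided at random between the groups. For sequencing, 6 samples per group were then picked at random. The labels give no litter, so which libraries come from littermates is not known and the tests treat pups as independent. Each library was made from the 3′ ends of the mRNA of 1 hypothalamus, so a transcript gives about 1 read per molecule and levels are given as CPM (counts scaled to a common library size) without division by length.

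Immediate early genes are transcribed within minutes of a stimulus, without new protein synthesis, and their mRNAs are short-lived. In neurons, calcium entry and kinase signalling act on transcription factors already bound at their promoters, among them serum response factor and CREB, so the level of these mRNAs is widely used as a record of recent activity. The Egr proteins, which are zinc finger transcription factors that bind GC-rich DNA, and Npas4 carry the signal on to later genes, while Arc and Homer1 act at the synapse. Ier2, Ier5 and Btg2 are induced by growth factors and stress in many cell types.

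Library totals lay between 3218777 and 6560620 counts. Of the 14 hypothalamic markers all had counts, with a summed level of 1421 to 2329 CPM in controls and 1665 to 2240 CPM after MMS. The sums were 35.1 to 70.4 and 36.5 to 66.4 CPM for 7 telencephalic markers. For 7 thalamic markers they were 506 to 1092 and 671 to 1003 CPM. These last sums rest largely on Slc17a6, with means of 500 and 513 CPM, and Tcf7l2, with 222 and 233 CPM. Lhx9 and Gbx2 averaged 13.0 and 5.19 CPM in controls (genes named after their values were seen). The part of thalamic tissue in the libraries was not tested. On the first principal component of all genes tested, MMS 2 and MMS 4 scored 57.8 and 46.3, and the remaining 10 libraries scored between -14.4 and -3.04. Tubb3, a neuronal tubulin and 1 of 6 neuronal markers, measured 1280 and 1307 CPM in them and 2069 CPM or more in each of the others. The other neuronal markers did not all go the same way, as given with the marker levels below. Ttr, the defining mRNA of the choroid plexus, measured 1735 CPM in control 3 and 35.5 CPM in control 4, and at most 5.10 CPM elsewhere. Values without MMS 2 and MMS 4 are given for the early genes that could be fitted without them. As these libraries were singled out on these same data, p-values without them are a description. In whole tissue, fewer cells of a type and less RNA per cell cannot be told apart.

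The first question was whether these genes differed between MMS and control pups. None was past the threshold after adjustment over all genes. Higher mean levels in MMS were seen for Egr1 (48.9% higher), Egr4 (61.0% higher) and the rare Egr2 (4.12 times the control mean), and Ier5 was at 0.737 of its control mean. The ratios of the MMS to the control mean of Arc, Homer1, Ier2, Btg2 and Npas4 lay between 0.908 and 1.12. Egr3 was listed at 0 in all 12 libraries.

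Of the 10 genes, 9 had at least 1 count and 7 passed the count filter. In the edgeR quasi-likelihood test with Benjamini-Hochberg adjustment, 0 of these 7 were past an adjusted p of 0.05, where the share over all 13104 genes tested was 0%. DESeq2 and limma-voom likewise placed 0 of them past it. At an unadjusted p under 0.05 there were 2 higher genes, Egr1 and Egr4, and 1 lower gene, Ier5, against a background of 4.68% higher and 4.4% lower, or 9.08% in either direction. The number at that level was 1 with limma-voom, 1 with a surrogate variable as a covariate and 1 without MMS 2 and MMS 4, and it was also 1 without MMS 5 and without MMS 6. In 5 of the 7 the fitted difference was above 0 (50.1% of all genes), with a median log2 fold change of 0.16 against 0.0009 over all genes. In none of the 7 did the groups lie without overlap, which 0.389% of all genes did.

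**Figure D1:**
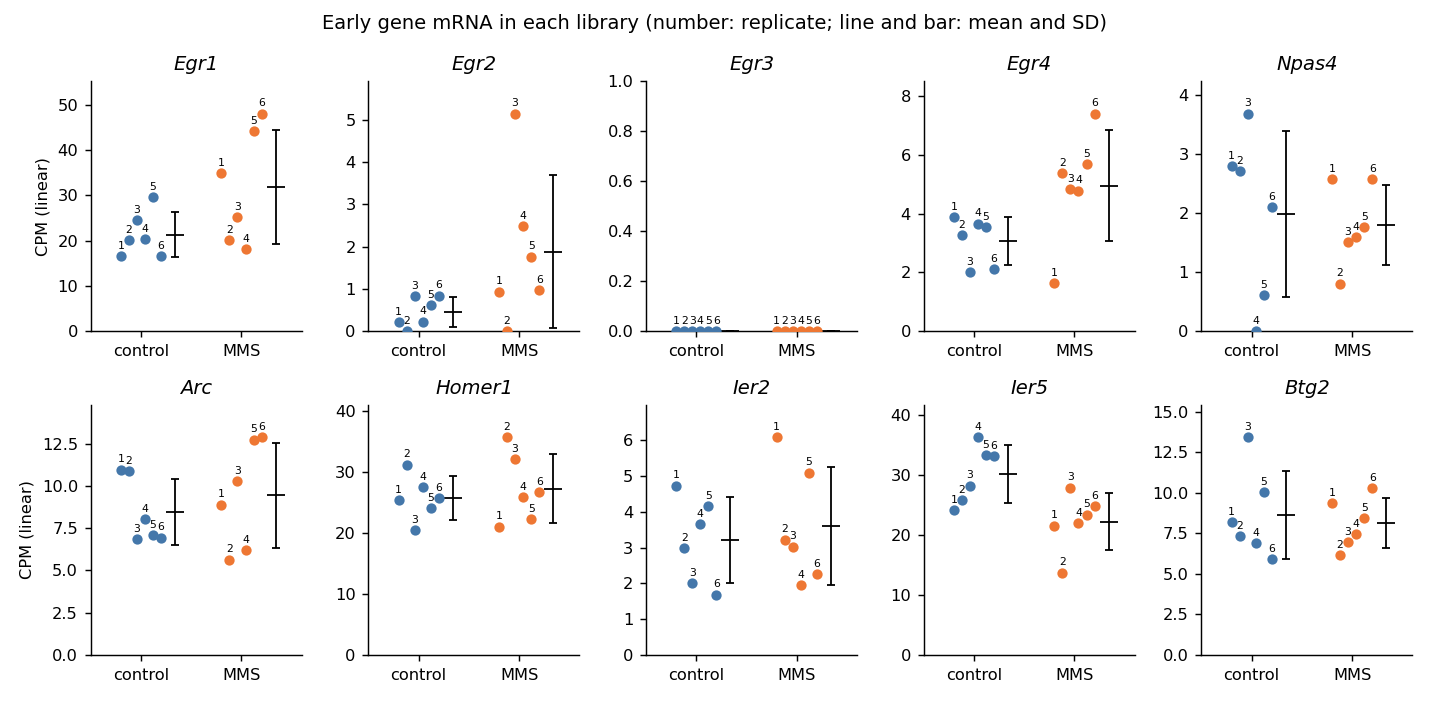
Level of each of the 10 early genes in every library, in CPM on a linear axis starting at 0, with the axis scaled per gene. Points are libraries numbered by replicate (blue control, orange MMS), and the line and bar give the mean and SD of 6 libraries. Egr1 reached 34.9 to 48.0 CPM in MMS 1, 5 and 6, while Ier5 lay below every control in 4 MMS libraries.

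On the scale of CPM the genes fell into tiers in control pups. Ier5 (30.1 ± 4.79 CPM, SD, n = 6), Homer1 (25.7 ± 3.58) and Egr1 (21.3 ± 5.01) formed the upper one, and the ranges of neighbours in this order overlapped. Btg2 (8.62 ± 2.73) and Arc (8.47 ± 1.95) followed, and their ranges overlapped nearly throughout. Ier2 (3.21 ± 1.205), Egr4 (3.08 ± 0.81), Npas4 (1.99 ± 1.41) and Egr2 (0.46 ± 0.36) came last, with overlap between neighbours. No library overlapped between the upper tier and Btg2 or between Arc and Ier2. The lower genes rest on few reads, from 213 counts over all 12 libraries for Egr4 down to 62 for Egr2.

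Egr1, the most abundant of its family here and the one most used as an activity marker, lies at chr18:34859823-34864984 on the plus strand of mm10. Its level in controls 1 to 6 was 16.6, 20.1, 24.5, 20.4, 29.6 and 16.6 CPM. In MMS 1 to 6 it was 34.9, 20.1, 25.1, 18.1, 44.1 and 48.0 CPM. MMS 1, 5 and 6 were above every control, and the other MMS libraries lay inside the control range, MMS 2 and MMS 4 among them. MMS 2 and MMS 4 held the lowest MMS levels, so leaving them out raises the difference between the groups. The means were 21.3 ± 5.01 and 31.7 ± 12.6 CPM (SD of 6 libraries, two-sided exact permutation test of the means, p = 0.0952).

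The log2 fold change of Egr1 was 0.56 (SE 0.23, edgeR unadjusted p = 0.0247, adjusted p = 0.543). Without MMS 2 and MMS 4 it was 0.83 (SE 0.18, edgeR unadjusted p = 7.72e-05, adjusted p = 0.129), in a fit in which 0.0373% of 13407 genes were past the adjusted threshold and 5.03% had an unadjusted p under 0.05. With 1 surrogate variable it was 0.84 (SE 0.17, edgeR adjusted p = 0.0729). With limma-voom over all 12 libraries it was 0.46 (SE 0.23, limma-voom unadjusted p = 0.0615, adjusted p = 0.487). Leaving out each library in turn gave log2 fold changes of 0.41 to 0.69 in 12 fits, and the unadjusted p was under 0.05 in 9 of them, the exceptions being those without control 1, MMS 5 or MMS 6 (at most 0.0758).

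Egr4 is a paralogue of Egr1 with a largely neuronal expression and lies at chr6:85511121-85513589 on the minus strand. It measured 3.87, 3.26, 2.01, 3.67, 3.55 and 2.11 CPM in controls 1 to 6, and 1.64, 5.37, 4.85, 4.79, 5.69 and 7.41 CPM in MMS 1 to 6. The MMS libraries fell on both sides of the controls, 5 above all of them and MMS 1 below all of them. MMS 2 and MMS 4 were with the higher libraries, unlike for Egr1. The log2 fold change was 0.68 (SE 0.32, edgeR unadjusted p = 0.0486, adjusted p = 0.546). For the means of 3.08 ± 0.81 and 4.96 ± 1.88 CPM (SD of 6 libraries) the exact two-sided permutation test gave p = 0.0541. Without MMS 1 the log2 fold change was 0.87, and it ranged from 0.54 to 0.87 over the fits without 1 library. The unadjusted p was under 0.05 in 3 of these, those without control 1, control 4 or MMS 1, and reached 0.125 without MMS 6. Without MMS 2 and MMS 4 the log2 fold change was 0.66 (SE 0.38, edgeR unadjusted p = 0.0905, adjusted p = 0.961). The unadjusted p was also above 0.05 with limma-voom (0.0982) and with 1 surrogate variable (0.0670).

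Egr2, known for its part in myelination and hindbrain segmentation as well as in neuronal activity, lies at chr10:67535475-67542188 on the plus strand. It had 15 counts in controls and 47 in MMS pups and did not pass the count filter. In controls it was 0.22, 0, 0.84, 0.23, 0.62 and 0.84 CPM, and in MMS 1 to 6 it was 0.94, 0, 5.15, 2.48, 1.77 and 0.97 CPM. All MMS libraries but MMS 2 were above the highest control in CPM. In counts this did not hold for MMS 1 and MMS 6, with 4 and 3, as controls 3, 5 and 6 had 5, 4 and 4. MMS 3 alone held 17 of the 47 counts. Group means were 0.46 ± 0.36 and 1.88 ± 1.81 CPM (SD of 6 libraries, two-sided exact permutation test, p = 0.0498). Without a count filter the log2 fold change was 1.90 (SE 0.67, edgeR unadjusted p = 0.00591, adjusted p = 0.519). The ratio of the means was 4.12 over all libraries, 2.69 without MMS 3 and up to 4.95 without control 6.

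Egr3, at chr14:70077203-70082614 on the plus strand, is a paralogue that acts in neurons and muscle spindles. It had 0 counts in every library. A count of 0 allows a level of up to 0.10 CPM over the controls and 0.12 CPM over the MMS libraries (3 counts per group), for counting error only. No other gene overlaps it in GENCODE release M21. As the annotation used for counting is not given in the sources used here, whether reads from its 3′ end could have been counted was not tested.

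The promoter sequences in the RefSeq table (build GRCm38.p6, 250 bases before to 50 after a transcript start) covered 6 of the 10 genes, Egr2, Egr4, Npas4, Homer1, Ier5 and Btg2, in 11 windows. They were searched on both strands for the CArG box bound by serum response factor, the cyclic AMP response element TGACGTCA bound by CREB, its half-site TGACG, and the Egr site GCGNGGGCG. A CArG box was found in windows of Egr2 alone among the 6, against 1.63% of all 32851 windows. The full cyclic AMP element was found in Btg2 alone (1.79% of all windows), as was an Egr site (5.55%). The half-site, which is also part of the full element, was found in 7 of the 11 windows, from each of the genes but Ier5 (20.8% of all windows). The Egr2 windows with a half-site overlap and hold the same sites. The windows are therefore not independent, and their number cannot be read as enrichment over the share of all windows.

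The 200 bases before the transcript start are shown for Egr2, Egr4 and Ier5, the genes of this set with the smallest unadjusted p that the table holds, and for Btg2, with the motifs found in capitals. The Egr2 stretch belongs to 1 of its 4 windows with a CArG box, here CCATATATGG, which overlapping windows share. They lie at chr10:67537669-67537868 (plus strand), chr6:85513590-85513789 (minus), chr1:155099637-155099836 (minus) and chr1:134079156-134079355 (minus).
Egr2: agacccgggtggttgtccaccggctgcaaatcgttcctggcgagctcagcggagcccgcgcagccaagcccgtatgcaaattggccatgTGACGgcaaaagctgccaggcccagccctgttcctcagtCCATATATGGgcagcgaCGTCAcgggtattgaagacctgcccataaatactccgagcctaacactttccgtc
Egr4: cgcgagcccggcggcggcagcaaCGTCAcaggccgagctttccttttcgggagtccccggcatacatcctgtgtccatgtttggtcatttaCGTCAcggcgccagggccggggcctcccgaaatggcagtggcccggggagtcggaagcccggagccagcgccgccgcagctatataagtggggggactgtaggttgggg
Ier5: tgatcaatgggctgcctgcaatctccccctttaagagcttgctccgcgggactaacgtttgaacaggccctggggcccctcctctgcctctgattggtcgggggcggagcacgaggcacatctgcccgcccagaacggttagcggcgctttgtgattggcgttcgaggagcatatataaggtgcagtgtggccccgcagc
Btg2: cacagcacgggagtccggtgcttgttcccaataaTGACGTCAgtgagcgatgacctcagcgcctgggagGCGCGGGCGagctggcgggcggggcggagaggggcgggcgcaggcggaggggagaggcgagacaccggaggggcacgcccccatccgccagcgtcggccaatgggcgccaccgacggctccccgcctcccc
In Egr2 the CArG box stands between a half-site on each strand, in Egr4 both half-sites face the same way, and Ier5 holds none of the motifs searched. A match is a run of letters and not a measured binding site.

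Npas4, a basic helix-loop-helix factor confined largely to neurons and induced by calcium entry, lies at chr19:4984355-4990316 on the minus strand. It measured 2.80, 2.72, 3.69, 0, 0.62 and 2.11 CPM in controls and 2.58, 0.81, 1.51, 1.596, 1.77 and 2.58 CPM in MMS 1 to 6. The MMS values lay inside the control range, which ran from 0 counts in control 4 to 22 counts in control 3. With 104 counts in all it did not pass the filter. Without a filter its log2 fold change was -0.13 (SE 0.50, approximate 95% interval -1.12 to 0.86, edgeR adjusted p = 0.954), and it changed sign to 0.09 without MMS 2 and MMS 4.

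Arc encodes a protein that removes AMPA receptors from synapses and is among the mRNAs most tightly tied to synaptic activity. It lies at chr15:74669083-74672570 on the minus strand. Controls 1 to 6 measured 10.98, 10.9, 6.88, 8.02, 7.10 and 6.95 CPM, and MMS 1 to 6 measured 8.90, 5.64, 10.3, 6.21, 12.7 and 12.9 CPM. MMS 5 and MMS 6, which were also the highest in Egr1, were above all controls, and MMS 2 and MMS 4 were below all controls. The log2 fold change was 0.16 (SE 0.24, approximate 95% interval -0.31 to 0.63, edgeR adjusted p = 0.839), and without MMS 2 and MMS 4 it was 0.42 (SE 0.23, edgeR adjusted p = 0.961).

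Homer1 encodes scaffold proteins that tie metabotropic glutamate receptors to internal calcium stores. The long forms are made constantly, and a short form that neuronal activity induces ends at an earlier poly(A) site. The gene lies at chr13:93299635-93405129 on the plus strand, where GENCODE lists 11 coding transcripts with 8 different 3′ ends spread over 44667 bases. The table has 1 row for all of them, so the short form was not measured apart. Controls measured 25.4, 31.2, 20.5, 27.5, 24.1 and 25.7 CPM and MMS pups 21.1, 35.7, 32.1, 25.9, 22.4 and 26.7 CPM. MMS 2 and MMS 3 were above all controls and the rest lay among them. The log2 fold change was 0.09 (SE 0.15, approximate 95% interval -0.22 to 0.39, edgeR adjusted p = 0.869), and it was -0.0086 without MMS 2 and MMS 4.

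Ier5, a nuclear protein that works with a phosphatase and with heat shock factor, lies at chr1:155096361-155099636 on the minus strand. It was the gene of this set with the smallest p among those that passed the filter. Controls 1 to 6 measured 24.1, 25.8, 28.2, 36.2, 33.3 and 33.1 CPM. MMS 1 to 6 measured 21.5, 13.7, 27.9, 21.99, 23.3 and 24.8 CPM. MMS 1, 2, 4 and 5 lay below all controls, and controls 3 to 6 lay above all MMS libraries. The means were 30.1 ± 4.79 and 22.2 ± 4.75 CPM (SD of 6 libraries, two-sided exact permutation test, p = 0.0152).

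For Ier5 the log2 fold change was -0.44 (SE 0.16, edgeR unadjusted p = 0.0120, adjusted p = 0.543). It was -0.33 without MMS 2, the lowest library, and reached -0.52 without MMS 3, and all 12 fits without 1 library had an unadjusted p under 0.05. Without both MMS 2 and MMS 4 it was -0.31 (SE 0.15, edgeR unadjusted p = 0.0523, adjusted p = 0.961). With 1 surrogate variable it was -0.28 (SE 0.16, edgeR unadjusted p = 0.0848, adjusted p = 0.941).

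**Figure D2:**
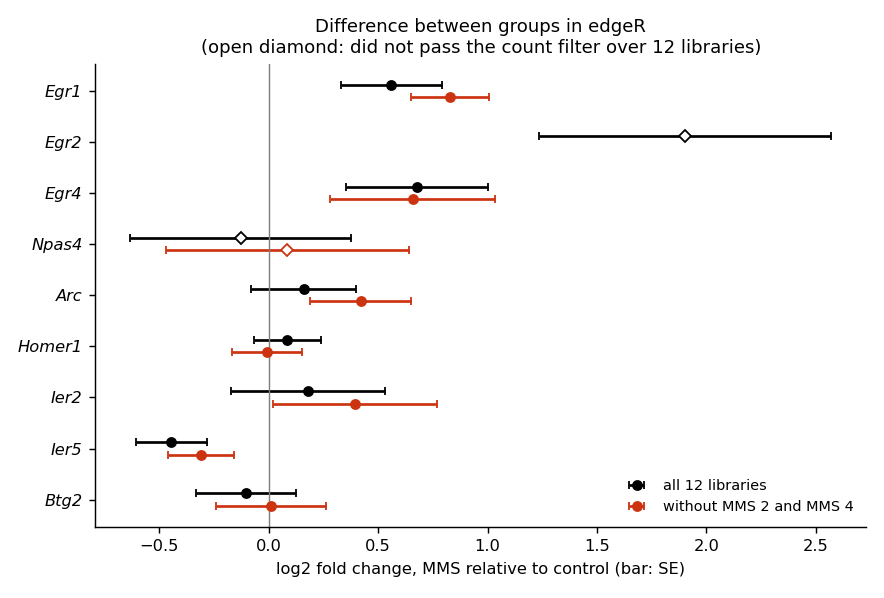
Log2 fold change between MMS and control in edgeR (horizontal axis) for the 9 early genes with counts, with bars of 1 SE, over all 12 libraries (black) and without MMS 2 and MMS 4 (red). Open diamonds are genes that did not pass the count filter over 12 libraries, and Egr2 has no value in the second fit. Egr1 moved from 0.56 to 0.83, Arc from 0.16 to 0.42 and Ier5 from -0.44 to -0.31.

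Ier2, which shares a short N-terminal region with Ier5 and is a fast nuclear response gene, lies at chr8:84661331-84662852 on the minus strand. It ran from 1.69 to 4.74 CPM in controls (median 3.33) and from 1.95 to 6.09 CPM in MMS pups (median 3.13), with MMS 1 and MMS 5 above all controls. The log2 fold change was 0.18 (SE 0.35, approximate 95% interval -0.51 to 0.87, edgeR adjusted p = 0.881). Its sign rested on MMS 1, without which the value was -0.02. Without MMS 2 and MMS 4 it was 0.40 (SE 0.38, edgeR adjusted p = 0.964).

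Btg2 slows the cell cycle and brings mRNAs to the deadenylase complex, and in the embryonic brain it marks progenitors about to form neurons. It lies at chr1:134075170-134079120 on the minus strand. It ran from 5.90 to 13.4 CPM in controls (median 7.76) and from 6.18 to 10.3 CPM in MMS pups (median 7.94). The highest level was that of control 3, the library with 1735 CPM of Ttr, and the part of that tissue in the value was not tested. The log2 fold change was -0.10 (SE 0.23, approximate 95% interval -0.55 to 0.34, edgeR adjusted p = 0.894). Without control 3 it was 0.07, and without MMS 2 and MMS 4 it was 0.01 (SE 0.25, edgeR adjusted p = 0.999).

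Egr1 and Ier5 had unadjusted p-values under 0.05 in opposite directions, so their counts were set against each other within each library, where scaling between libraries plays no part. This ratio was chosen after the values were seen and is given without a test. The count of Egr1 divided by that of Ier5 was 0.69, 0.78, 0.87, 0.56, 0.89 and 0.50 in controls 1 to 6. In MMS 1 to 6 it was 1.62, 1.47, 0.90, 0.82, 1.89 and 1.94. It was above every control in 5 of 6 MMS libraries, MMS 2 included, and inside the control range in MMS 4. The mean was 0.72 ± 0.16 in controls and 1.44 ± 0.48 in MMS pups (SD, n = 6 per group). Egr1 over Btg2 gave 2.56 ± 0.50 and 3.82 ± 1.00, also with 5 MMS libraries above all controls. Egr1 over Arc, 2.67 ± 1.02 and 3.34 ± 0.56, had no MMS library outside the control range.

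**Figure D3:**
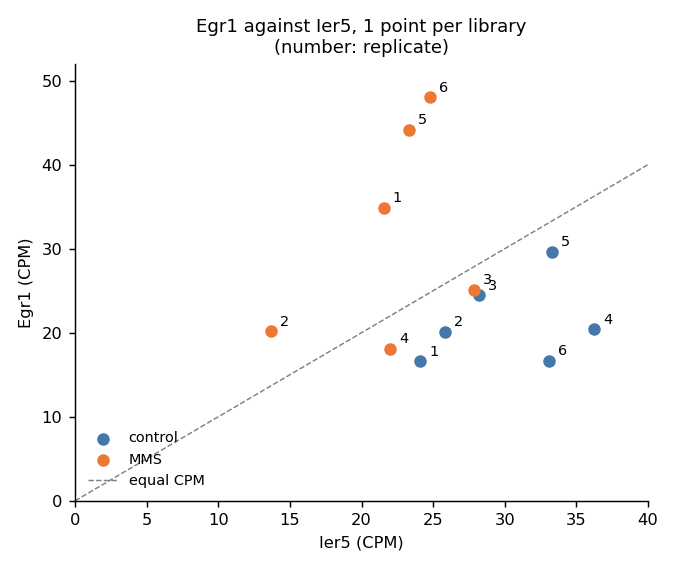
Egr1 (vertical axis) against Ier5 (horizontal axis), both in CPM, with 1 point per library numbered by replicate (blue control, orange MMS); the dashed line marks equal levels. MMS 1, 2, 5 and 6 lie above the line, with counts of Egr1 from 1.47 to 1.94 times those of Ier5, and all controls lie below it.

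Across libraries no common movement of the genes was seen. Of the 21 pairs of the 7 genes that passed the filter, 11 had a positive and 10 a negative Pearson r of log2 CPM over the 10 libraries other than MMS 2 and MMS 4, with a median r of 0.04. The libraries differ in depth and include both groups, so these values are a description. Counts were low for Egr4 (7 to 29 per library) and Ier2 (7 to 27), and counting error by itself pulls r toward 0. Egr4 and Arc had the highest r (0.74, Spearman rho 0.76). Arc and Ier5 had the lowest (-0.68, rho -0.66), followed by Homer1 and Btg2 (-0.65, rho -0.64). Egr1 had r = 0.46 with Arc, 0.45 with Egr4, 0.50 with Btg2 and -0.47 with Ier5. These r include any difference between the groups, and within the 6 controls alone they were -0.48 with Arc, 0.02 with Egr4, 0.70 with Btg2 and 0.31 with Ier5.

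Library by library, the median over the 7 genes of the log2 difference from the control mean was 0.10, -0.05, 0.26, -0.20, 0.59 and 0.30 in MMS 1 to 6. In the controls the same median ran from -0.32 in control 6 to 0.22 in control 5. MMS 3, 5 and 6 were above this range and MMS 1, 2 and 4 were inside it. The genes outside the set whose log2 CPM followed the mean standardised profile of the 7 most closely over 12 libraries were Sccpdh (r = 0.91), Cdk14 (0.90), Jak1 (0.88), Dpp10 (0.87) and Xpot (0.86). Over the 10 libraries without MMS 2 and MMS 4, a part of the same 12, these r ran from 0.83 to 0.96. The 5 were picked for the highest r out of all tested genes, so such values are a description and were not tested. None of these 5 genes is an early gene by the lists used here, and their log2 fold changes between the groups were -0.02 to 0.08.

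**Figure D4:**
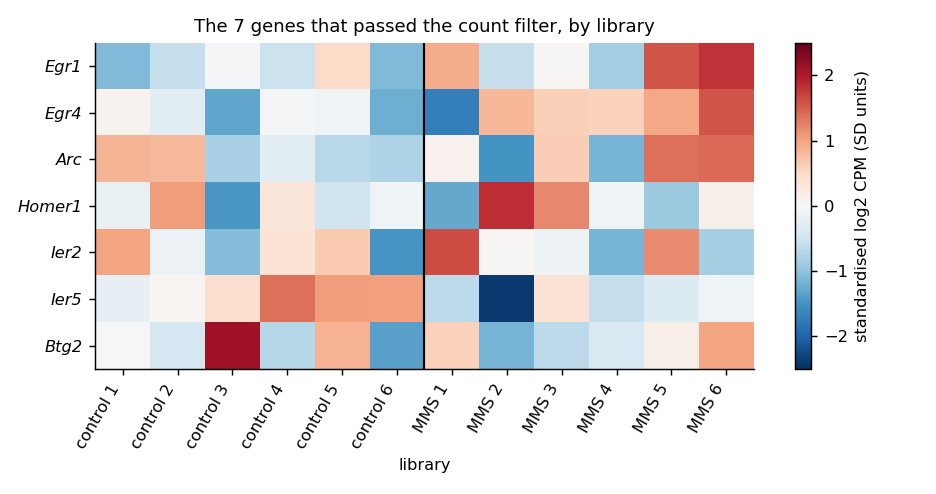
Log2 CPM of the 7 early genes that passed the count filter (rows), standardised per gene to mean 0 and SD 1 over the 12 libraries (columns; controls left and MMS right of the black line). MMS 5 and MMS 6 are high in Egr1, Egr4 and Arc together, MMS 2 is high in Homer1 and low in Ier5 and Arc, and control 3 is high in Btg2.

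The second question was how the rest of the pathway stood. Among 17 upstream transcription factors of the serum response factor, CREB and MEF2 families, 0 were higher and 1 was lower at an unadjusted p under 0.05 (background 4.68% and 4.4%), with a median log2 fold change of -0.13. The lower gene was Mef2c, a factor of activity-dependent transcription in neurons (45.4 ± 11.8 against 34.2 ± 5.56 CPM, SD of 6 libraries, log2 fold change -0.41, SE 0.16, edgeR adjusted p = 0.543). The median of this list was 0.04 without MMS 2 and MMS 4. Srf, which encodes serum response factor and was looked at after its values were seen, measured 33.0 and 34.6 CPM in MMS 2 and MMS 4, from 63.2 to 93.6 CPM in the other MMS libraries and from 63.5 to 80.1 CPM in controls.

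None of the 15 upstream kinases of the MAP kinase, CaM kinase and protein kinase A routes had an unadjusted p under 0.05 in either direction (median log2 fold change 0.08). The same held for 4 partners, the Egr corepressors Nab1 and Nab2 and the Npas4 partners Arnt and Arnt2 (median 0.07). It held as well for 13 synaptic partners of Arc and Homer1 (median 0.07) and for the 6 tested of 7 Btg and deadenylase genes (median -0.10). Without MMS 2 and MMS 4 the kinases and the synaptic partners had 1 higher gene each at that level and the Btg list had 1 lower gene. In that fit 5.03% of all 13407 genes had an unadjusted p under 0.05 in either direction.

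Of 33 other early genes 24 passed the filter, among them the Fos, Jun and Nr4a families. At an unadjusted p under 0.05, 4 of them were higher and 1, Jun, was lower (named after its values were seen), where the shares over all genes were 4.68% and 4.4%, with a median log2 fold change of 0.07. None was past the adjusted threshold. The smallest p-values were those of the nuclear receptors Nr4a3 (log2 fold change 1.71, SE 0.29, edgeR adjusted p = 0.103) and Nr4a1 (1.03, SE 0.22, adjusted p = 0.340), followed by Fos (1.24, SE 0.30, adjusted p = 0.385). Without MMS 2 and MMS 4, Nr4a3 and Fosl2 were past the adjusted threshold.

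Fos was above all controls (at most 5.90 CPM) in 4 MMS libraries. In MMS 5 and MMS 6 it measured 8.24 and 7.41 CPM, and Egr1 was above all controls there too. In MMS 2 and MMS 4 it was highest, at 13.4 and 11.9 CPM, where Egr1 was at 20.1 and 18.1 CPM within the control range. Fosl2, an AP-1 subunit, was at 11.8 and 10.5 CPM in those libraries, also within its control range of 9.06 to 13.3 CPM, and at 22.2 to 34.1 CPM in the other MMS libraries. The comparison with Fosl2 was chosen after its values were seen.

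Of 12 later activity-induced genes, which the early factors help to switch on, 9 passed the filter and had a median log2 fold change of -0.16. Without MMS 2 and MMS 4 this median was -0.03. Vgf, a secreted neuropeptide precursor, was the 1 gene at an unadjusted p under 0.05. The shares over all genes were 4.68% higher and 4.4% lower. Vgf had a control mean of 334 ± 31.9 CPM against 396 ± 22.9 CPM after MMS (SD of 6 libraries, log2 fold change 0.24, SE 0.09, edgeR adjusted p = 0.543). Its level was above all controls in 5 of 6 MMS libraries.

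**Figure D5:**
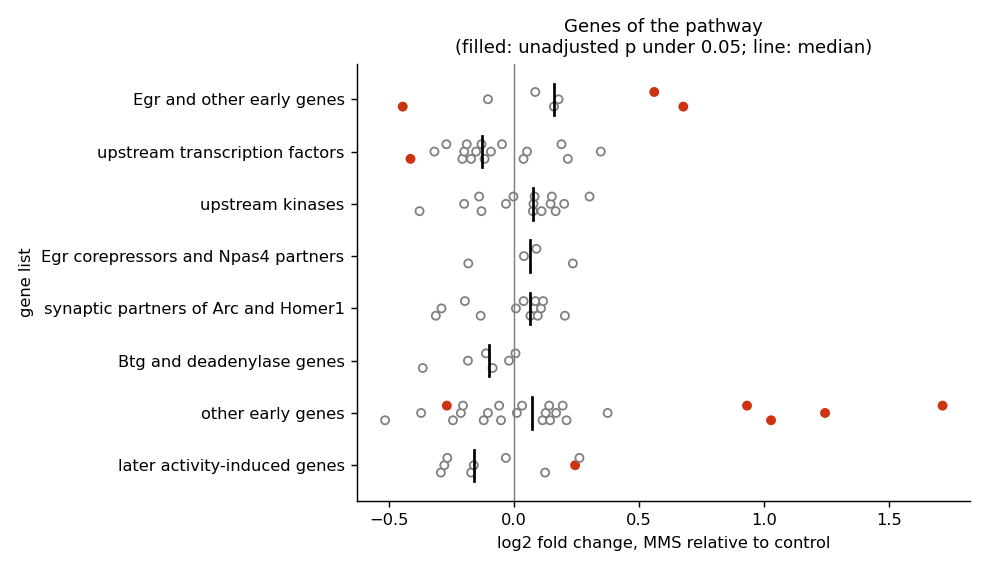
Log2 fold change between MMS and control in edgeR (horizontal axis) for the tested genes of each list (rows), with 1 point per gene and a black line at the list's median. Filled red points have an unadjusted p under 0.05 and none is past the adjusted threshold; the 7 early genes of this set lie between -0.44 and 0.68, and Nr4a3 is the rightmost point at 1.71.

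Early genes are also transcribed outside neurons, in blood vessels among other cells, so marker levels were set beside these results. The summed level of 6 endothelial markers was 134 to 162 CPM in controls and 95.9 to 156 CPM in MMS pups (exact permutation test, two-sided, p = 0.0195). Without MMS 2 and MMS 4 the same exact test gave p = 0.0524. Of these markers 2 had a higher and 4 a lower fitted level after MMS, with a median log2 fold change of -0.07. Cldn5, a tight junction protein, had the lowest p (log2 fold change -0.60, SE 0.15, edgeR adjusted p = 0.385) and was below all controls in 5 of 6 MMS libraries, while Pecam1, an adhesion molecule named after its values were seen, was at 0.24 (SE 0.22, edgeR adjusted p = 0.731). For 6 neuronal markers the sums were 6979 to 7649 and 5523 to 7589 CPM (exact permutation test, two-sided, p = 0.0736). The sums in MMS 2 and MMS 4 were 5564 and 5523 CPM, and without them the range after MMS was 6270 to 7589 CPM (p = 0.343, same exact test). Tubb3, the marker with the highest mean in each group, averaged 3163 CPM in controls and 2257 CPM after MMS. It measured 1280 and 1307 CPM in MMS 2 and MMS 4. The median log2 fold change of the 6 genes was -0.01. Leaving out MMS 2 and MMS 4 raised the value of Tubb3 (-0.49 to -0.20), Syt1, Rbfox3 and Elavl3. It lowered that of Snap25 (0.13 to 0.03) and Stmn2 (0.09 to 0.05), all named after their values were seen. The low sums in these libraries therefore cannot be read as a fall of all 6 markers. For 6 microglial markers the sums were 135 to 173 and 114 to 155 CPM (p = 0.262, same exact test). Summed astrocyte markers lay between 877 and 1124 CPM in controls and between 855 and 1178 CPM in MMS pups (p = 0.429, same exact test). Summed ependymal cilia markers were 64.3 to 152 CPM in controls and 15.3 to 144 CPM after MMS (p = 0.0714, same exact test). They were at 15.3 and 28.6 CPM in MMS 2 and MMS 4, without which the exact test gave p = 0.343. All 6 tested had a lower mean after MMS, with a median log2 fold change of -0.79. Meningeal markers summed to 92.8 to 220 and 46.5 to 231 CPM (p = 0.361, same exact test). Red blood cell markers summed to 850 to 1534 and 616 to 1499 CPM (p = 0.227, same exact test). Choroid plexus markers summed to 5.71 to 1762 and 3.54 to 9.13 CPM (p = 0.0736, same exact test). The exact p-values of the marker sums are not adjusted for the number of lists. The part of these differences in the levels of the early genes was not tested.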

How the data were processed

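RNA from whole hypothalamus was made into QuantSeq 3′ mRNA libraries, which the authors sequenced on the Ion Proton and aligned to mm10 within Torrent Suite. The authors deposited raw read counts per gene, unnormalised and unpooled. For the counter, its annotation and its use of strand, the sources used here say nothing. Rows whose symbol had become a date (27) were kept unnamed.

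Counts were tested in edgeR 4.0.16 (R 4.3.3) by the quasi-likelihood method with robust dispersion, TMM scaling and the default filter (minimum count 10, minimum total 15), and p-values were adjusted over 13104 genes. CPM used the same scaling. SE is the log2 fold change divided by the root of the F statistic. Single values were compared over all 924 splits of 6 and 6 libraries, for which the smallest two-sided p is 0.00216. DESeq2 1.42.0, limma 3.58.1 and sva 3.50.0 gave the alternatives. The fits were tested on simulated counts. Replicate pairs differed beyond sampling noise (chi-square per degree of freedom 4.04 to 31.5 over 30 pairs). As reads were not tagged by molecule, limits set by 0 counts hold for counting error alone.

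Members and lists were chosen with earlier results of these data known. The genes named were the 10 members, up to 3 genes per list with the smallest unadjusted p under 0.05, and the 5 genes closest to the members' mean profile. Others are said to have been chosen after their values were seen. The oligodendrocyte and thalamic marker lists had 0 genes past the adjusted threshold and medians of 0.05 and 0.12 on the log2 scale. The 5 tested telencephalic markers had 0 past it and a median of -0.81, with 2 higher and 3 lower after MMS. Of these, 1 was lower at an unadjusted p under 0.05. Of the pituitary markers 0 passed the filter. Coordinates are 1-based, from GENCODE M21. Marker sums without MMS 2 and MMS 4 were added after the data were seen.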

Additional observations from a re-analysis of the deposited data

How the results depend on the processing

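None of the early genes tested was past an adjusted p of 0.05 in any of 7 other settings or 12 fits without 1 library. Egr3 was in none of these, Egr2 was in 2 of the settings and Npas4 was in 3 of the settings and 7 of the 12 fits. Over all genes the number past it was 0 in edgeR, 1 without a count filter, 6 with DESeq2, 4 with 1 surrogate variable, 5 without MMS 2 and MMS 4, and 0 to 1 on leaving out 1 library. An unadjusted p under 0.05 was found for 1190 genes, 2039 without a filter, 690 with the surrogate variable, 674 without MMS 2 and MMS 4, and 700 (without MMS 2) to 1804 (without MMS 5) on leaving out 1 library. Among the early genes that number was 3, 4 without a filter and with DESeq2, 2 with the replicate block (Egr4 unadjusted p = 0.0952), and 1 with limma-voom, with the surrogate variable and without MMS 2 and MMS 4, and it was 1 to 3 on leaving out 1 library. The median over the members kept its sign in all alternatives, at 0.05 to 0.36. Signs that reversed were those of genes near 0. Npas4 became 0.0866 without MMS 2 and MMS 4, and ran from -0.3869 (without control 4) to 0.0101 (without MMS 2). Homer1 became -0.0287 with the surrogate variable and -0.0086 without MMS 2 and MMS 4. Ier2 ran from -0.0228 (without MMS 1) to 0.3283 (without MMS 4). Btg2 became 0.0169 with the surrogate variable and 0.0107 without MMS 2 and MMS 4, and ran from -0.182 (without control 6) to 0.0719 (without control 3). The cause was not tested. With the replicate number as a block, 1 gene was past the adjusted threshold and 0 of the members. The labels do not say that a number marks a litter. The deviations of same-numbered libraries had r between -0.05 and 0.12, with the own number closest in 2 of 6. Such values cannot show whether same-numbered libraries come from littermates, so the main fit was left without pairing. Low counts limit Egr2, Npas4, Ier2 and Egr4.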
